A study of Citrus sinensis with 36 samples.

Results

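The pulp of Jincheng orange (JC) was compared with the pulp of Xianfeng orange (XF), both sweet oranges (Citrus sinensis) of the common orange (CO) group. The comparison rested on 6 RNA-seq libraries, 3 from each variety, out of the 36 libraries of the study. Genes were kept where the mean of either variety was 0.3 FPKM or more, which left 16169 of the 29654 genes in the table. FPKM counts the fragments of a gene per kilobase of its length, scaled for the depth of the library. Fruits of both varieties were harvested at 220 days after flowering (DAF), peel and pulp were separated by hand, and neither variety received a treatment. The other libraries came from the peel of both varieties and from the peel and pulp of Taoye orange (TY, also CO) and of 3 Valencia oranges (VO), Cutter (CU), Delta (DE) and Rohde Red (RR). Each variety is a single genotype, and the replicates are fruit samples from groups of trees of that genotype, so the p-values measure the spread between such samples. Variety and the state of ripeness that each variety had reached at harvest cannot be told apart in these libraries.

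Orange pulp consists mainly of juice sacs, whose swollen cells keep sugars and citric acid in a large vacuole behind proton-pumping membranes. The cells have thin walls of pectin, cellulose and xyloglucan, and they draw on phenylpropanoid, flavonoid and terpene pathways for their secondary compounds. Fruit tissue also expresses defence proteins such as chitinases and thaumatin-like proteins, and its stress signalling runs through families such as the ethylene response factors (ERFs), which switch other genes on or off. Descriptions of genes used here rest on similarity to known proteins, mostly from other plants, and name a likely function only.

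The pulp libraries held 16074977 to 16675708 mapped fragments in JC and 16977034 to 18842347 in XF. Between 15731 and 15759 genes reached 0.3 FPKM in a JC library and between 15810 and 15872 in an XF library. Squared differences between replicates of a variety were 2.10 to 2.75 times what counting alone gives (median over genes), so none was a repeat of another. Across genes, libraries of a variety had a Pearson r of 0.984 to 0.987 on the log2 scale, and libraries of different varieties 0.967 to 0.970. These values are descriptions, since genes are not independent replicates.

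The tissue label was checked on genes of other fruit parts. Genes of cuticle and epidermis summed to 2.88 to 3.65 FPKM in JC pulp and 2.93 to 3.93 FPKM in XF pulp, against 11.98 to 15.36 FPKM in JC peel and 20.4 to 25.8 FPKM in XF peel, and 5 to 6 of the 12 were at 0 in each pulp library. Genes of vascular tissue summed to 1.28 to 1.37 FPKM in JC pulp and 0.194 to 0.796 FPKM in XF pulp, with 3 to 4 of the 10 at 0 in JC and 5 to 7 in XF. The cellulose synthase Cs5g29200 (subunit 4), which makes secondary walls, had 0.294, 0.491 and 0.695 FPKM in JC pulp, against 0.0251, 0.035 and 0.034 FPKM in XF pulp, which in XF was 2 or 3 fragments a library. The part of the vascular and oil gland markers in the results below was not tested. In bulk tissue, fewer cells of a type and less RNA per cell cannot be told apart. The list of green tissue summed to 191 to 193 FPKM in JC pulp and 201 to 209 FPKM in XF pulp, and the list of seed storage and oil body proteins to 74.0 to 85.3 FPKM in JC and 77.0 to 82.4 FPKM in XF. In the peel the green list was lower, at 164 to 166 FPKM in JC and 148 to 163 FPKM in XF. The oil gland list was also lower there. It summed to 105 to 108 FPKM in JC peel and 105 to 110 FPKM in XF peel, against 213 to 237 FPKM in JC pulp and 140 to 165 FPKM in XF pulp. The green and oil gland lists therefore did not mark the peel in these libraries.

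One library stood apart within its variety in a few of these genes. A seed storage albumin, Cs4g11110, had 0.43, 0.347 and 5.48 FPKM in JC pulp, against 0.751, 0.349 and 0.465 FPKM in XF pulp. The oleosin Cs2g27550, a protein of seed oil bodies, had 0.259, 0.483 and 3.29 FPKM in JC pulp, against 0.153, 0.331 and 0.55 FPKM in XF pulp, and the oleosin Cs9g13650 had 0.528, 0.547 and 2.21 FPKM in JC pulp, against 0.236, 0.394 and 0.3397 FPKM in XF pulp. The third JC library lay above all 5 others in each of these genes, none of which passed the test, and the part of this in other results was not tested beyond leaving the library out. Without this library, 4174 genes were called and 488 of them changed at least 2-fold.

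JC and XF pulp differed in many genes by a little and in fewer by much. At an adjusted p under 0.05 in limma, a linear model that shares the error estimate between genes, 2384 genes were higher (14.7%) and 2665 lower (16.5%) in JC pulp, 31.2% of the genes tested. The counts of gene lists below are to be read beside these shares. Scaling the libraries by median ratios gave 2599 higher and 2483 lower. Differences were small for most of them, and 3507 of the 5049 called genes (69.5%) differed by less than 0.5 on the log2 scale. At least 2-fold differences were called for 158 genes higher and 335 genes lower in JC (3.05% of the genes tested, 0.977% and 2.07% by direction), and differences of at least 3 on the log2 scale for 17 and 6 genes. The median log2 difference over all genes was -0.02. The groups did not overlap for 46.2% of the genes. An exact permutation test of a single gene with 3 libraries against 3 cannot go below p = 0.10, so the calls rest on the error shared across genes.

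**Figure D1:**
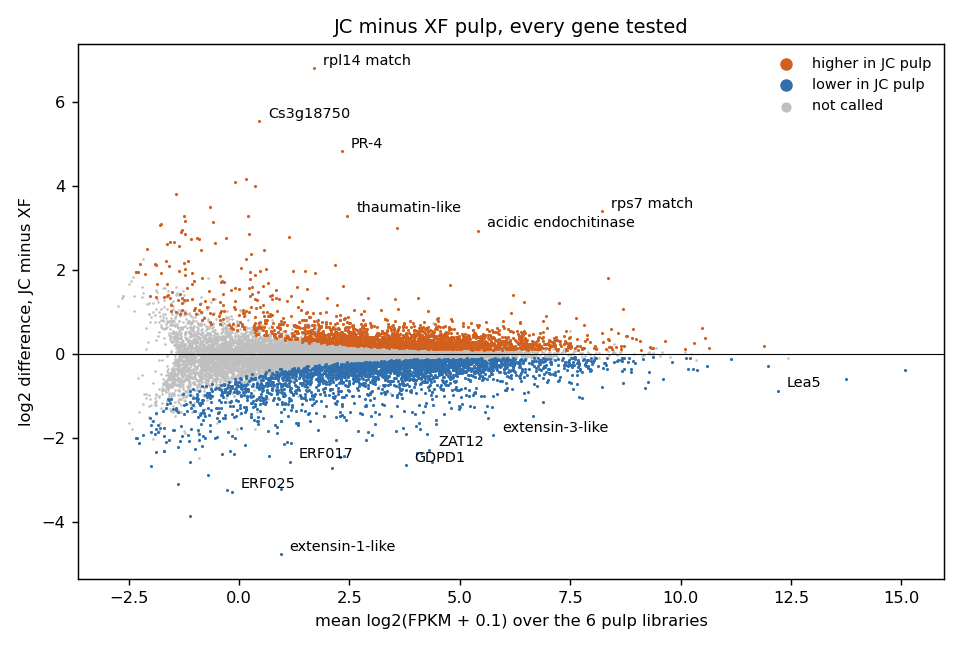
Each point is 1 of the 16169 genes tested, with the mean log2(FPKM + 0.1) over the 6 pulp libraries on the x axis and the log2 difference of JC minus XF on the y axis. Colours mark genes called higher (2384) or lower (2665) in JC pulp at an adjusted p under 0.05, and the named points include the genes matching plastid rpl14 and rps7, the defence genes PR-4, thaumatin-like and acidic endochitinase above 0, and ERFs, ZAT12, GDPD1 and extensins below 0.

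The largest difference was in a set of genes whose descriptions match the plastid or mitochondrial genome. These organelles carry small genomes of their own, whose transcripts encode ribosomal, photosynthetic and RNA polymerase proteins. The table holds 13 such genes, gathered after their values were seen. Of the 12 tested, 9 were higher in JC pulp, each at least 2-fold against 0.977% of all genes, none was lower, and their median log2 difference was 2.49. The gene matching ribosomal protein rpl14, orange1.1t04817, had 33.2, 32.02 and 37.6 FPKM in JC pulp, against 0.243, 0.377 and 0.0731 FPKM in XF pulp (log2 difference 6.81 ± 0.31 SE, adjusted p = 1.5e-06), the largest difference of all genes tested. The gene matching ribosomal protein rps7, Cs4g12360, had 977, 869 and 1061 FPKM in JC pulp, against 131, 81.3 and 71.7 FPKM in XF pulp (log2 difference 3.399 ± 0.19 SE, adjusted p = 5.2e-06). In both genes all JC libraries lay far above all XF libraries. The same separation was seen at lower levels, where the gene matching RNA polymerase subunit rpoA, orange1.1t03665, had 3.93, 5.13 and 4.96 FPKM in JC pulp, against 0.129, 0.157 and 0.214 FPKM in XF pulp. The gene matching ycf2, Cs3g09470, had 3.29, 3.96 and 3.37 FPKM in JC pulp, against 0.154, 0.4296 and 0.278 FPKM in XF pulp, and the gene matching the maturase matK, Cs2g09070, which splices plastid introns, had 1.65, 2.17 and 2.35 FPKM in JC pulp, against 0.0823, 0.357 and 0.272 FPKM in XF pulp. The members not called were a second ycf2 match, Cs4g09830, a psaA match, Cs1g09310, and orange1.1t04602.

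In the peel the set was at a similar level in both varieties, with 3 of the 12 genes called higher in JC, none 2-fold. Its summed level was 921 to 1120 FPKM in JC pulp and 78.8 to 141 FPKM in XF pulp, against 1222 to 1273 FPKM in JC peel and 1130 to 1143 FPKM in XF peel. In the pulp of the other varieties it was 942 to 1009 FPKM in TY, but 55.8 to 69.4 FPKM in CU, 69.1 to 85.1 FPKM in DE and 69.1 to 74.9 FPKM in RR. The rps7 match Cs4g12360 made up 94.3% to 94.9% of this sum in JC pulp and 88.9% to 93.1% in XF pulp. The other 12 genes summed to 52.3 to 59.8 FPKM in JC pulp and 7.15 to 10.1 FPKM in XF pulp, and to 50.2 to 53.5 FPKM in TY pulp and 7.76 to 12.7 FPKM over the 3 VO pulps. With or without the rps7 match, XF pulp was nearer in level to the VO pulps, and JC pulp nearer to TY pulp and to the peels. The difference between the tissues passed the test for 8 of the 12 genes, all above 0 (9.36% of all genes), with 6.61 ± 0.36 (SE) on the log2 scale for orange1.1t04817 (adjusted p = 9.7e-08). The set was gathered after its pulp values were seen, and those values are part of this term. The count and the signs follow in part from that choice, and nothing is read from them. The libraries were made from RNA selected by its poly-A tail, and the part of that step in the difference between JC and XF pulp was not tested. The set took 0.0796% to 0.0957% of the fragments in JC pulp and 0.0065% to 0.0114% in XF pulp, and without these genes 5047 genes were called, 482 of them at least 2-fold.

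**Figure D2:**
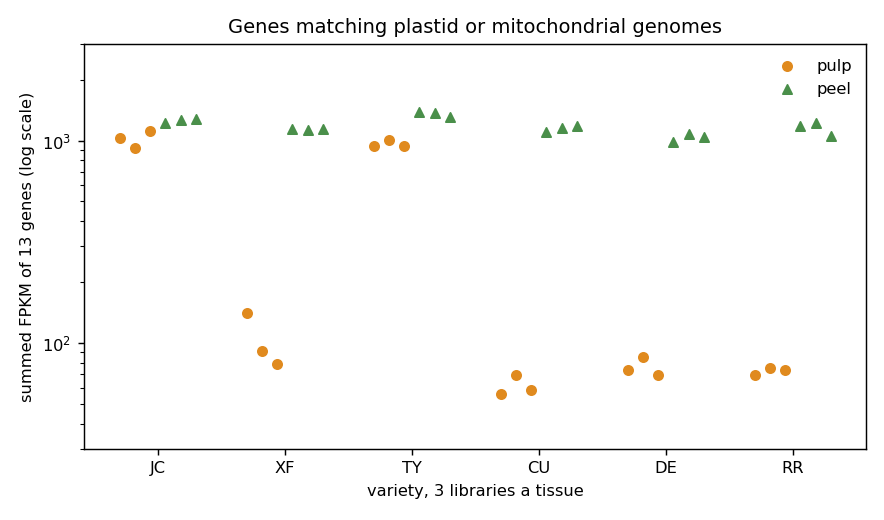
Summed FPKM (log axis) of the 13 genes that match plastid or mitochondrial genomes, by variety, with each library as a point (circles, pulp; triangles, peel). JC pulp at 921 to 1120 FPKM and TY pulp lie near the peels, while XF pulp at 78.8 to 141 FPKM lies near the 3 VO pulps, and the rps7 match Cs4g12360 makes up most of each sum.

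Some genes without such a match showed the same separation. Cs6g03480, described as a plasma membrane ATPase, had 5.05, 4.71 and 5.52 FPKM in JC pulp, against 0.293, 0.147 and 0.244 FPKM in XF pulp (log2 difference 4.01 ± 0.20 SE, adjusted p = 2.3e-06), and 8.91 FPKM in JC peel and 7.52 FPKM in XF peel. Its pulp means in the other varieties were 5.01 FPKM in TY pulp, 0.371 in CU, 0.336 in DE and 0.315 in RR. Cs3g21240, with no description, had 2.62, 4.69 and 4.35 FPKM in JC pulp, against 0.0779, 0.109 and 0.2105 FPKM in XF pulp, and Cs7g25130, also undescribed, had 438, 818 and 642 FPKM in JC pulp, against 216, 159 and 152 FPKM in XF pulp. Of 42 nuclear genes of photosynthesis tested, 6 were higher and 4 lower in JC, with a median of -0.01. These were 14.3% and 9.52%, against 14.7% and 16.5% of all genes, and over other settings of the fit 2 to 9 were higher and 0 to 7 lower. The 2 that were at least 2-fold higher were chlorophyll binding proteins at low level, of which orange1.1t03504 (CP24) had 0.717, 0.582 and 0.479 FPKM in JC pulp, against 0.153, 0.199 and 0.193 FPKM in XF pulp. The small subunit of Rubisco, Cs4g03580, averaged 169 ± 2.31 FPKM in JC pulp and 185 ± 3.23 FPKM in XF pulp (SD, n = 3 each, as for all means given here).

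Defence proteins differed in both directions. Of 53 pathogenesis-related proteins tested, 10 were higher and 19 lower in JC pulp (18.9% and 35.8%, against 14.7% and 16.5% of all genes), with a median log2 difference of -0.09. Of the 10 rises 8 were at least 2-fold, and of the 19 falls 3. PR-4 (Cs8g13740), a wound-induced protein of the chitin-binding kind, had 25.4, 26.4 and 28.7 FPKM in JC pulp, against 0.915, 0.907 and 0.714 FPKM in XF pulp (log2 difference 4.84 ± 0.10 SE, adjusted p = 4.9e-08). The acidic endochitinase Cs9g14710, an enzyme that cuts the chitin of fungal walls, had 122, 122 and 112 FPKM in JC pulp, against 14.9, 15.5 and 15.8 FPKM in XF pulp (log2 difference 2.94 ± 0.04 SE, adjusted p = 5.8e-09). It was the most abundant of the genes of this list that rose at least 2-fold, 7.72 times as high in JC as in XF. The thaumatin-like protein orange1.1t03024, of a family with antifungal members, had 17.3, 18.1 and 15.7 FPKM in JC pulp, against 1.48, 1.66 and 1.83 FPKM in XF pulp (log2 difference 3.29 ± 0.09 SE, adjusted p = 1.3e-07), while of the 10 thaumatin-like genes tested 2 were higher and 4 lower, with a median of -0.28. A pair of neighbouring IDs that match major allergens of apricot and cherry, intracellular proteins of the PR-10 family, also rose. Cs9g03630 had 34.3, 32 and 34.5 FPKM in JC pulp, against 4.89, 3.76 and 3.71 FPKM in XF pulp, and Cs9g03610 had 2.63, 1.701 and 1.48 FPKM in JC pulp, against 0.195, 0.272 and 0 FPKM in XF pulp. Such close relatives can share reads, and the share assigned to each is uncertain. Of 9 chitinases tested 4 were higher and 3 lower, with a median of 0.01. Beside the acidic endochitinase the higher ones were at lower level, with log2 differences of 1.93 ± 0.13 (SE) for hevamine-A (Cs9g18700), 2.65 ± 0.26 for chitinase 4 (Cs5g21860) and 2.47 ± 0.24 for chitinase-like protein 2 (Cs9g02520). The acidic endochitinase, these chitinases and the allergens were chosen after their values were seen.

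Of the families of this list, the beta-1,3-glucanases, which cut callose and the glucans of fungal walls, had 10 lower and none higher of 20 tested, with a median of -0.22. The basic isoform orange1.1t00634 had 31.4, 29.3 and 34.4 FPKM in JC pulp, against 59.97, 68.97 and 61.5 FPKM in XF pulp, a log2 difference of -1.001 ± 0.07 (SE), and Cs8g14950 averaged 48.8 ± 3.03 FPKM in JC pulp and 87.9 ± 3.298 FPKM in XF pulp (SD, n = 3 each). The basic endochitinase Cs1g26330, the list's most abundant called member, fell by a smaller amount, with 219, 219.5 and 219 FPKM in JC pulp, against 271, 301 and 275 FPKM in XF pulp. The families and both glucanases were chosen after the values were seen. Protease inhibitors had 1 higher and 3 lower of 14 (7.14% and 21.4%, against 14.7% and 16.5% of all genes). NBS-LRR resistance proteins, the receptors that recognise pathogens inside the cell, had 11 higher and 27 lower of 265, so that 14.3% were called against 31.2% of all genes and 10.2% were lower against 16.5%. Among them Cs1g11080 had 2.11, 3.301 and 2.67 FPKM in JC pulp, against 0.893, 1.13 and 0.805 FPKM in XF pulp, while Cs4g07730 averaged 0.0405 ± 0.031 FPKM in JC pulp and 0.595 ± 0.119 FPKM in XF pulp (SD, n = 3 each).

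Enzymes of detoxification differed in both directions, and among the glutathione S-transferases the larger differences were upward. Glutathione S-transferases attach glutathione to reactive compounds. Of 47 tested, 11 were higher and 5 lower in JC (23.4% and 10.6%, against 14.7% and 16.5% of all genes), with a median of -0.03. All 5 of the at least 2-fold differences were rises. The transferase parA, Cs1g08610, had 1.999, 1.65 and 2.57 FPKM in JC pulp, against 0, 0.1404 and 0.181 FPKM in XF pulp (log2 difference 3.501 ± 0.39 SE, adjusted p = 0.00026). The abundant Cs5g15190 had 275, 286 and 301 FPKM in JC pulp, against 178, 181 and 171 FPKM in XF pulp, a log2 difference of 0.699 ± 0.04 (SE), and was chosen after its values were seen. Cs1g17410, a cytochrome P450 of the 71A1 type, had 1.09, 1.08 and 1.44 FPKM in JC pulp, against 0.0284, 0.0397 and 0.0641 FPKM in XF pulp. The P450 list as a whole had 19 higher and 21 lower of 97 (19.6% and 21.6%), with 3 rises and 2 falls of at least 2-fold. The berberine bridge enzyme-like gene Cs2g10140, of an oxidase family, had 1.51, 1.24 and 1.17 FPKM in JC pulp and no fragment in any XF library. Against a floor of 3 fragments a library, this was at least 16.9-fold higher in JC, and the gene was also at 0 in TY, CU, DE and RR pulp.

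Flavonoid enzymes had 12 higher and 3 lower of 37 (32.4% and 8.11%, against 14.7% and 16.5% of all genes), with a median log2 difference of 0.11. Chalcone synthase makes the first flavonoid skeleton, and 3 of 4 tested genes rose, a family split off after the values were seen. The main one, Cs3g19360, had 81.7, 83.6 and 88.1 FPKM in JC pulp, against 53.8, 60.02 and 60.01 FPKM in XF pulp (log2 difference 0.54 ± 0.05 SE, adjusted p = 7.7e-05). Cs2g14720 had 2.2, 1.06 and 1.48 FPKM in JC pulp, against 0.447, 0.416 and 0.47 FPKM in XF pulp, and Cs9g11190 had 2.297, 2.33 and 3.06 FPKM in JC pulp, against 0.902, 1.28 and 0.7904 FPKM in XF pulp. Phenylpropanoid and lignin enzymes, which act upstream and beside this pathway, had 9 higher and 15 lower of 60 (15.0% and 25.0%), with a median of -0.11. Terpene synthases had 5 higher and 2 lower of 14 (35.7% and 14.3%), with a median of 0.05. Limonene synthases make the main monoterpene of orange oil. In the marker list named for oil glands, 4 of the 5 genes tested were higher in JC. The list summed to 213 to 237 FPKM in JC pulp and 140 to 165 FPKM in XF pulp. In the peel it was lower, as given above, so its name stands for the matched proteins and not for a tissue. The synthase Cs3g04170 had 84.3, 80.1 and 85.4 FPKM in JC pulp, against 48.02, 49.8 and 46.1 FPKM in XF pulp (log2 difference 0.79 ± 0.04 SE, adjusted p = 2.6e-06). Close copies of these synthases can share reads. A gamma-terpinene synthase, Cs8g14120, fell, with 0.234, 0.381 and 0.0855 FPKM in JC pulp, against 0.984, 0.854 and 0.828 FPKM in XF pulp.

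Among transcription factors more were lower than higher in JC pulp, with the largest share lower among the ERFs and their DREB relatives, which bind the promoters of ethylene, cold and drought genes. Of 49 tested, 1 was higher and 28 were lower (57.1%, against 16.5% of all genes), 14 of them at least 2-fold, and the median log2 difference was -0.49. ERF017 (Cs4g07040) had 0.725, 0.925 and 0.799 FPKM in JC pulp, against 5.15, 5.14 and 5.77 FPKM in XF pulp (log2 difference -2.58 ± 0.12 SE, adjusted p = 2e-06). ERF025 (Cs9g16820) had 0.363, 0.126 and 0.124 FPKM in JC pulp, against 2.199, 3.98 and 2.25 FPKM in XF pulp (log2 difference -3.29 ± 0.34 SE, adjusted p = 0.00016), and its neighbour by ID, the DREB1D match Cs9g16810, had 2.32, 2.24 and 1.92 FPKM in JC pulp, against 10.96, 14.2 and 11.1 FPKM in XF pulp. The DREB1B match Cs5g10240 had 2 fragments in the 3 JC libraries together and 58 in the XF libraries. A pair of ERF4 genes, in Arabidopsis a repressor, fell as well, with 8.87, 9.35 and 9.13 FPKM in JC pulp, against 32.9, 30.7 and 32.3 FPKM in XF pulp for Cs1g07950 and log2 differences of -1.799 ± 0.05 (SE) and -2.06 ± 0.06 for Cs2g05620. At higher levels the falls were slight, as in ERF5 (Cs9g13620), with 187, 188 and 186 FPKM in JC pulp, against 220.4, 212 and 224 FPKM in XF pulp. Cs1g07950, Cs2g05620 and Cs9g16810 were chosen after their values were seen.

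The zinc finger ZAT12 (Cs8g17960), in Arabidopsis a regulator of oxidative stress genes, had 8.93, 8.64 and 9.02 FPKM in JC pulp, against 44.4, 46.2 and 39.9 FPKM in XF pulp (log2 difference -2.28 ± 0.06 SE, adjusted p = 1.1e-07). A ZAT10 gene, Cs3g15900, had 38.6, 38.9 and 36.4 FPKM in JC pulp, against 74.2, 76.7 and 76.3 FPKM in XF pulp, and 3 of the 7 ZAT genes tested were lower and 1 higher. A CAF1 homologue, Cs6g12480, of the complex that shortens mRNA tails, averaged 7.58 ± 0.443 FPKM in JC pulp and 39.4 ± 1.32 FPKM in XF pulp (SD, n = 3 each), a log2 difference of -2.37 ± 0.05 (SE), and was chosen after its values were seen. Protein phosphatase 2C 25 (Cs8g20420) had 9.202, 10.9 and 9.32 FPKM in JC pulp, against 36.6, 38.1 and 35.8 FPKM in XF pulp (log2 difference -1.902 ± 0.07 SE, adjusted p = 4e-07). It was the only 1 of 47 protein phosphatases 2C tested to fall at least 2-fold. Of these, 6 were higher and 11 lower (12.8% and 23.4%), with a median of -0.03. The calmodulin-binding protein Cs6g16350 averaged 12.7 ± 1.25 FPKM in JC pulp and 37.7 ± 1.16 FPKM in XF pulp. BON1-associated protein 2 (orange1.1t00313), in Arabidopsis a brake on cell death, had 0.332, 0.115 and 0.113 FPKM in JC pulp, against 2.44, 2.12 and 2.84 FPKM in XF pulp (log2 difference -3.24 ± 0.30 SE, adjusted p = 8.6e-05). WRKY factors had 3 higher and 12 lower of 31 (9.68% and 38.7%, against 14.7% and 16.5% of all genes). WRKY33 (Cs6g09420), a factor of the response to fungi, had 0.103, 0.231 and 0.264 FPKM in JC pulp, against 1.15, 0.955 and 1.11 FPKM in XF pulp. Calcium sensors had 2 higher and 11 lower of 32 (34.4% lower). Receptor-like kinases had 13 higher and 28 lower of 170 (16.5% lower), the same share lower as over all genes.

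Other families of factors leaned the same way with smaller differences. NAC factors had 5 higher and 15 lower of 45, MYB factors 2 and 14 of 46, bHLH factors 4 and 11 of 36, and MADS-box factors 1 and 7 of 25. NAC29 (Cs7g03570) had 30.8, 28.99 and 27.5 FPKM in JC pulp, against 79.2, 74.5 and 74.95 FPKM in XF pulp (log2 difference -1.39 ± 0.05 SE, adjusted p = 3e-07), whereas NAC56 (Cs1g06750), the most abundant called NAC, rose, with 518, 493 and 512 FPKM in JC pulp, against 382, 380.3 and 369.7 FPKM in XF pulp. MYB61 (Cs6g01750), in Arabidopsis a regulator of stomata and cell walls, averaged 1.197 ± 0.157 FPKM in JC pulp and 2.85 ± 0.105 FPKM in XF pulp. The AGAMOUS match Cs2g04250, a floral organ and fruit factor, averaged 20.3 ± 0.495 FPKM in JC pulp and 34.1 ± 0.837 FPKM in XF pulp (SD, n = 3 each).

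**Figure D3:**
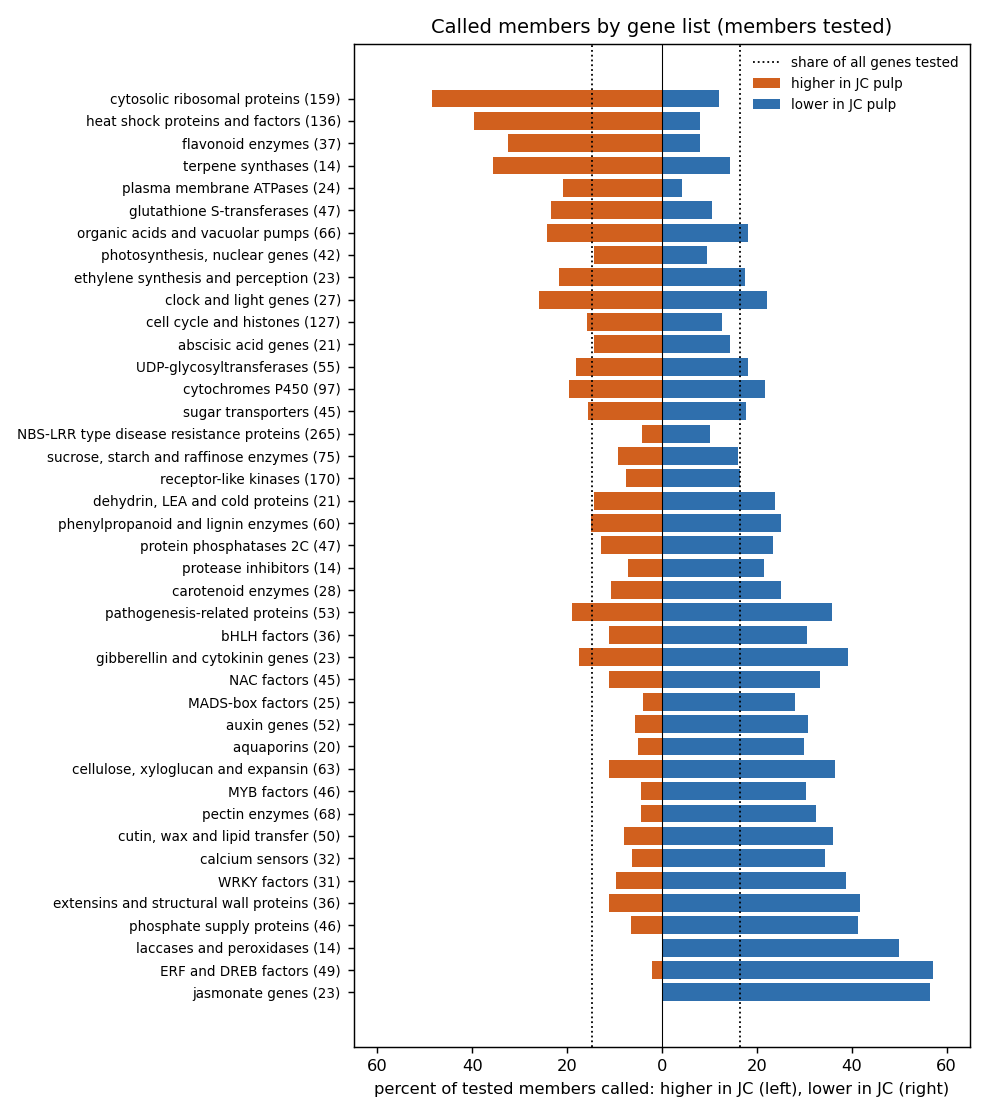
Share of the tested members of each gene list that were called higher (left, orange) or lower (right, blue) in JC pulp, for lists with at least 14 tested members (number in brackets). The marker lists and the transposon-related proteins are not shown. Dotted lines mark the shares over all genes, 14.7% higher and 16.5% lower, and the ERF and DREB list near the lower end has 1 member higher and 28 lower while cytosolic ribosomal proteins at the upper end have 77 and 19.

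Genes of phosphate supply were gathered into a list after the values were seen. Plants short of phosphate release it from phospholipids and esters, take it up through PHT1 transporters and sense it through SPX proteins. Of 46 such genes, 19 were lower and 3 higher (41.3% and 6.52%, against 16.5% and 14.7% of all genes). Of the 19, 10 were at least 2-fold lower, against 2.07% of all genes, and the median log2 difference was -0.31. These counts and the median follow in part from the choice of the list, and nothing is read from them. The glycerophosphodiesterase GDPD1 (Cs2g13910), which breaks down phospholipid remnants, had 6.75, 5.18 and 4.36 FPKM in JC pulp, against 37.8, 28.9 and 36.8 FPKM in XF pulp (log2 difference -2.66 ± 0.15 SE, adjusted p = 6.3e-06). Inorganic pyrophosphatase 2 (Cs1g18540) had 11.3, 8.25 and 6.35 FPKM in JC pulp, against 53.8, 44.7 and 52.9 FPKM in XF pulp (log2 difference -2.57 ± 0.18 SE, adjusted p = 1.7e-05). Purple acid phosphatase 17 (orange1.1t02668) had 0.108, 0.448 and 0 FPKM in JC pulp, against 1.49, 1.58 and 1.63 FPKM in XF pulp, and 8 of the 20 purple acid phosphatases tested were lower and 1 higher. The transporter PHT1-4 (Cs5g29860) had 0.128, 0.496 and 0.392 FPKM in JC pulp, against 2.72, 1.63 and 1.89 FPKM in XF pulp, while a PHT1-7 gene, Cs9g10540, had 3.56, 3.73 and 3.43 FPKM in JC pulp, against 2.82, 2.12 and 2.57 FPKM in XF pulp. SPX3 (orange1.1t00194), a sensor of inositol phosphates, had 8.86, 8.62 and 7.22 FPKM in JC pulp, against 23.6, 18.6 and 21.3 FPKM in XF pulp, and 4 of 6 SPX genes were lower. The sulfolipid synthase SQD2 (Cs6g07840), which makes membrane lipid free of phosphorus, averaged 5.26 ± 0.428 FPKM in JC pulp and 12.5 ± 1.08 FPKM in XF pulp. The PHT1, SPX and SQD2 genes were chosen after their values were seen. In the peel the differences were smaller, with 89.7 FPKM in JC peel and 97.4 FPKM in XF peel for GDPD1 and 97.2 FPKM in JC peel and 106 FPKM in XF peel for the pyrophosphatase.

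Among cell wall genes more were lower than higher in JC pulp. Extensins are structural glycoproteins that are crosslinked in the wall. The extensin-1-like gene Cs5g15230 had 0.278, 0.433 and 0.143 FPKM in JC pulp, against 9.98, 11.1 and 8.93 FPKM in XF pulp (log2 difference -4.78 ± 0.25 SE, adjusted p = 4.1e-06), the largest fall of all genes tested. Its level varied between the other varieties, with 0.0497 FPKM in TY pulp, 11.1 in CU, 81.3 in DE and 83.7 in RR. The extensin-3-like gene Cs3g21170 had 25.4, 29.3 and 27.3 FPKM in JC pulp, against 102, 111 and 103 FPKM in XF pulp (log2 difference -1.94 ± 0.06 SE, adjusted p = 1.3e-07), and its neighbour by ID, Cs3g21160, averaged 13.6 ± 0.822 FPKM in JC pulp and 31.9 ± 1.54 FPKM in XF pulp and was chosen after its values were seen. Of 36 structural wall proteins, 4 were higher and 15 lower (11.1% and 41.7%, against 14.7% and 16.5% of all genes), with a median of -0.20. A glycine-rich protein, Cs2g20200, was an exception, with 2.82, 2.35 and 2.83 FPKM in JC pulp, against 0.325, 0.555 and 0.4398 FPKM in XF pulp.

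Pectin enzymes had 3 higher and 22 lower of 68 (4.41% and 32.4%, against 14.7% and 16.5% of all genes), with a median of -0.17. Beta-galactosidase 7 (Cs4g07080), which trims side chains, had 1.94, 2.31 and 2.25 FPKM in JC pulp, against 8.52, 9.82 and 9.41 FPKM in XF pulp (log2 difference -2.05 ± 0.09 SE, adjusted p = 1.6e-06). The most abundant called member, pectate lyase 22 (Cs5g06600), rose, with 1686, 1711 and 1701 FPKM in JC pulp, against 1292, 1326 and 1323 FPKM in XF pulp, a log2 difference of 0.37 ± 0.02 (SE). Enzymes of cellulose, xyloglucan and expansins had 7 higher and 23 lower of 63 (11.1% and 36.5%). Expansin A1 (Cs7g03630), which loosens walls, averaged 215 ± 4.59 FPKM in JC pulp and 269.7 ± 15.6 FPKM in XF pulp. Laccases and peroxidases, which oxidise lignin units, had none higher and 7 lower of 14. Laccase 7 (Cs6g07400) had 1.11, 0.949 and 0.918 FPKM in JC pulp, against 4.12, 4.75 and 5.14 FPKM in XF pulp (log2 difference -2.12 ± 0.13 SE, adjusted p = 8.2e-06), and peroxidase 55 (Cs2g25450) averaged 20.3 ± 1.22 FPKM in JC pulp and 39.96 ± 2.996 FPKM in XF pulp (SD, n = 3 each). Genes of cutin, wax and lipid transfer had 4 higher and 18 lower of 50, 9 of them at least 2-fold. CER1 (Cs1g02760), which makes wax alkanes, had 2.87, 2.72 and 2.25 FPKM in JC pulp, against 7.68, 7.81 and 7.25 FPKM in XF pulp, and the lipase EXL3 (Cs3g26470) had 0.414, 0.258 and 0.212 FPKM in JC pulp, against 1.93, 1.74 and 1.797 FPKM in XF pulp. CER1 was chosen after its values were seen. The summed levels of the cuticle marker list overlapped between the pulps, as given above. Aquaporins, the water channels, had 1 higher and 6 lower of 20, with 216 ± 5.69 FPKM in JC pulp and 287 ± 7.41 FPKM in XF pulp on average for TIP1-1 (orange1.1t03005) of the vacuole membrane.

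**Figure D4:**
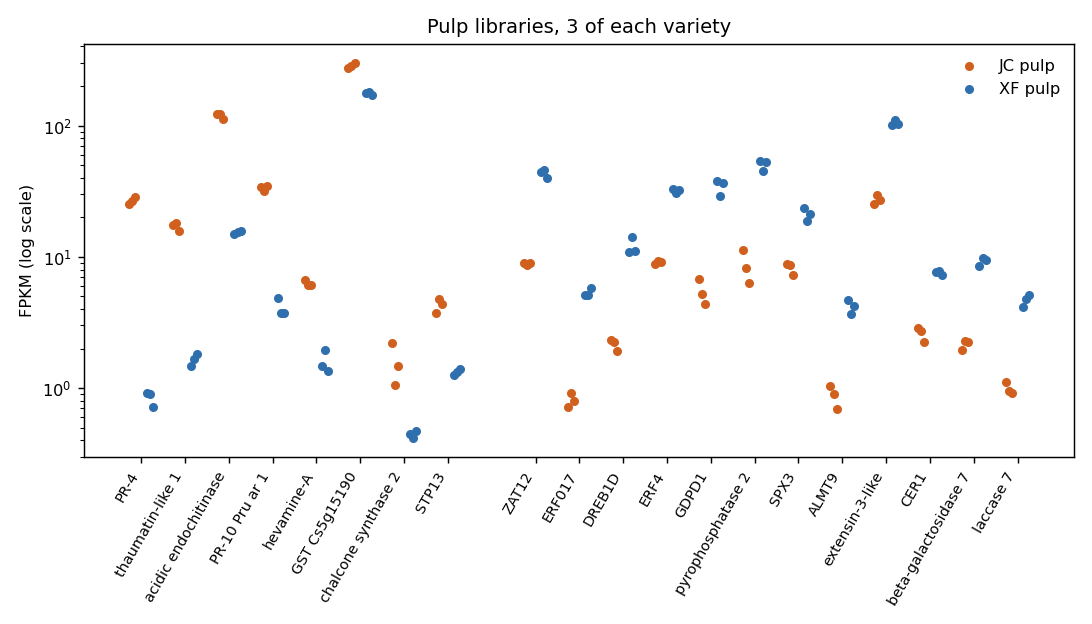
FPKM (log axis) of 20 genes in each pulp library (points), JC in orange and XF in blue, 3 libraries of each variety. The 8 genes on the left were higher in JC pulp, among them PR-4 and the acidic endochitinase, and the 12 on the right lower, from ZAT12 to laccase 7.

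Sugar and acid metabolism showed smaller changes in both directions. Of 66 genes of organic acids and vacuolar pumps, 16 were higher and 12 lower (24.2% and 18.2%, against 14.7% and 16.5% of all genes), with a median of 0.04. ALMT9 (Cs5g02830), a malate channel of the vacuole membrane, had 1.04, 0.901 and 0.697 FPKM in JC pulp, against 4.69, 3.69 and 4.23 FPKM in XF pulp (log2 difference -2.15 ± 0.16 SE, adjusted p = 2.7e-05), the only difference of at least 2-fold in the list. Mitochondrial citrate synthase (Cs7g01170), which makes citrate, averaged 11.1 ± 0.172 FPKM in JC pulp and 8.65 ± 0.292 FPKM in XF pulp, and all 3 aconitases, which convert citrate, rose, with 67.6, 66.8 and 65.8 FPKM in JC pulp, against 53.5, 53.7 and 56.9 FPKM in XF pulp for Cs1g26040. One phosphoenolpyruvate carboxykinase, Cs1g20920, the first step from acids back to sugars, averaged 15.1 ± 1.5 FPKM in JC pulp and 28.1 ± 1.104 FPKM in XF pulp, and the more abundant copy Cs3g16700 moved the other way, 113 ± 2.3 FPKM in JC pulp and 92.9 ± 3.86 FPKM in XF pulp. Of the vacuolar proton ATPase subunits, 4 were higher and 2 lower of 22. The citrate synthase, aconitase and carboxykinase genes were chosen, and the ATPase subunits split off, after their values were seen. Plasma membrane ATPase 10 (Cs1g16150), whose homologue in petunia acidifies the vacuole, had 52.5, 55.1 and 57.2 FPKM in JC pulp, against 32.01, 35.5 and 35.1 FPKM in XF pulp (log2 difference 0.68 ± 0.05 SE, adjusted p = 2.3e-05).

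Enzymes of sucrose, starch and raffinose had 7 higher and 12 lower of 75, with a median of -0.01. Acid invertase (Cs5g09220), which splits sucrose in the vacuole, had 103, 104 and 102 FPKM in JC pulp, against 160.2, 153 and 161 FPKM in XF pulp (log2 difference -0.62 ± 0.03 SE, adjusted p = 1.6e-06). Sugar transporters had 7 higher and 8 lower of 45 (15.6% and 17.8%), near the shares of all genes (14.7% and 16.5%). The monosaccharide importer STP13 (Cs9g06620) had 3.74, 4.74 and 4.38 FPKM in JC pulp, against 1.25, 1.34 and 1.41 FPKM in XF pulp, and the sucrose carrier SUC2 (Cs3g22560), chosen after its values were seen, had 7.39, 7.28 and 5.87 FPKM in JC pulp, against 3.77, 3.68 and 3.91 FPKM in XF pulp. SWEET transporters, split off after the values were seen, had 2 higher and 5 lower of 12. The abundant SWEET15 (Cs7g02970) averaged 151 ± 1.06 FPKM in JC pulp and 195 ± 5.09 FPKM in XF pulp. Carotenoid enzymes had 3 higher and 7 lower of 28 (10.7% and 25.0%). NCED1 (Cs2g03270), which commits carotenoids to abscisic acid, had 90.6, 88.97 and 77.9 FPKM in JC pulp, against 129.9, 122 and 130.2 FPKM in XF pulp (log2 difference -0.57 ± 0.06 SE, adjusted p = 0.00013).

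Hormone genes differed by pathway. Jasmonate genes had none higher and 13 lower of 23 (56.5% lower, against 16.5% of all genes), with a median of -0.27. All 10 TIFY genes, repressors of jasmonate responses, had a difference below 0, and 6 were called, a family split off after the values were seen. The lipoxygenase Cs1g17380, an early enzyme of jasmonate synthesis, had 4.86, 4.799 and 4.26 FPKM in JC pulp, against 11.03, 11.01 and 11.2 FPKM in XF pulp (log2 difference -1.24 ± 0.07 SE, adjusted p = 4.8e-06). Auxin genes had 3 higher and 16 lower of 52 (5.77% and 30.8%). Gibberellin and cytokinin genes had 4 and 9 of 23 (17.4% and 39.1%), with 4.31, 3.99 and 4.07 FPKM in JC pulp, against 11.3, 11.4 and 10.9 FPKM in XF pulp for the chitin-inducible gibberellin-responsive protein Cs4g12130. Abscisic acid genes had 3 higher and 3 lower of 21 (14.3% each way), near the shares of all genes (14.7% and 16.5%). Genes of ethylene synthesis and perception had 5 and 4 of 23 (21.7% and 17.4%). A pair of ethylene synthesis enzymes rose, with 2.63, 2.99 and 2.36 FPKM in JC pulp, against 1.095, 0.4598 and 0.414 FPKM in XF pulp for the ACC oxidase Cs2g20590 and 6.21, 5.54 and 4.32 FPKM in JC pulp, against 3.53, 3.101 and 2.83 FPKM in XF pulp for the ACC synthase orange1.1t00414. EIN3-binding F-box protein 1 (Cs7g05390), which dampens ethylene signalling, averaged 60.1 ± 0.994 FPKM in JC pulp and 39.4 ± 0.8401 FPKM in XF pulp.

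Genes of protein synthesis and folding were more often higher than lower, by small amounts. Cytosolic ribosomal proteins had 77 higher and 19 lower of 159 (48.4% higher, against 14.7% of all genes), with a median of 0.15, and at 2-fold none rose and 2 fell. The most abundant called members were L8 (Cs1g25210), which fell, with 376, 373 and 365 FPKM in JC pulp, against 482, 473 and 469.6 FPKM in XF pulp, and L27 (Cs6g11320), with 355, 359 and 370.5 FPKM in JC pulp, against 335, 345 and 326 FPKM in XF pulp. The call of L27 was lost in 4 of the 6 fits that left out 1 library. Heat shock proteins and factors had 54 higher and 11 lower of 136 (39.7% and 8.09%), with a median of 0.14. Small heat shock proteins, which hold unfolded proteins, had 16 higher and 1 lower of 26, a family split off after the values were seen. The class I protein Cs6g07320 had 1666, 1761 and 1869 FPKM in JC pulp, against 1087, 1244 and 1117 FPKM in XF pulp (log2 difference 0.62 ± 0.06 SE, adjusted p = 7.5e-05), and Cs8g19510, chosen after its values were seen, averaged 26.3 ± 1.33 FPKM in JC pulp and 10.4 ± 2.003 FPKM in XF pulp. Cell cycle and histone genes had 20 higher and 16 lower of 127 (15.7% and 12.6%, against 14.7% and 16.5% of all genes). Clock and light genes had 7 and 6 of 27 (25.9% and 22.2%).

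Some of the most abundant pulp transcripts were lower in JC. A metallothionein-like protein, Cs1g07330, the most abundant transcript of both pulps among the genes named here, had 30648, 30285 and 30471 FPKM in JC pulp, against 40139.7, 39476 and 39337 FPKM in XF pulp. The SRC1-like gene Cs5g27060 had 11280.4, 11187 and 10964 FPKM in JC pulp, against 17321, 17065 and 16594 FPKM in XF pulp. Late embryogenesis abundant protein Lea5 (Cs9g04210), of a family that protects drying cells, had 3499.7, 3428 and 3514 FPKM in JC pulp, against 6792, 6304 and 6141 FPKM in XF pulp (log2 difference -0.88 ± 0.04 SE, adjusted p = 1.1e-06), and Lea14-A (Cs4g10930) had 55.4, 65.4 and 59.8 FPKM in JC pulp, against 176, 169 and 156 FPKM in XF pulp. The first 2 were chosen after their values were seen. The list of dehydrin, LEA and cold proteins had 3 higher and 5 lower of 21 (14.3% and 23.8%, against 14.7% and 16.5% of all genes). At least 2-fold, 1 was higher and 1 lower, and the median log2 difference of the list was -0.02, as over all genes. The 10 most highly counted genes held 6.49% to 6.51% of each JC pulp library and 7.42% to 7.56% of each XF pulp library. Of the genes with at least 2-fold differences, the undescribed Cs1g20150 had 155, 155 and 148 FPKM in JC pulp, against 314, 317 and 314 FPKM in XF pulp, and the 21 kDa protein Cs9g14320, of the pectinesterase inhibitor kind, had 142, 154 and 143 FPKM in JC pulp, against 295, 295 and 298 FPKM in XF pulp. The undescribed orange1.1t00563 was on the other side, with 233, 229 and 227 FPKM in JC pulp, against 95.4, 104 and 99.4 FPKM in XF pulp.

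Of 13 genes singled out in the study of the chewing quality of oranges, 2 were called between these varieties, against 31.2% of all genes, and 4 others were called under other settings of the fit. The study drew them from its comparison of VO with CO or from its co-expression networks. Both varieties here are CO, so these counts do not bear on that comparison. CsERF74 (Cs1g16690) had 284, 283 and 263 FPKM in JC pulp, against 303, 296 and 291 FPKM in XF pulp and was not called (log2 difference -0.099 ± 0.03 SE, adjusted p = 0.058), although it passed the limma threshold with a minimum mean of 1 FPKM (adjusted p = 0.0499), with all pulp libraries in 1 fit (0.00753) and in limma-voom (0.0085). CsNAC25 (Cs2g06460) was slightly lower, with 61.1, 59.4 and 59.99 FPKM in JC pulp, against 69.9, 69.5 and 73.4 FPKM in XF pulp (log2 difference -0.24 ± 0.03 SE, adjusted p = 0.00078). CsHSFB3 (orange1.1t02319) had 4.92 ± 0.435 FPKM in JC pulp and 5.16 ± 0.313 FPKM in XF pulp on average, and CsSPL4 (Cs2g23550) and Cs7g10990, an SPL described as SPL16, had log2 differences of -0.11 ± 0.17 and -0.24 ± 0.17 (SE), none of them called. Of the lignin genes, the caffeoyl-CoA O-methyltransferase Cs4g13440 was lower in JC, with 3.91, 3.92 and 4.25 FPKM in JC pulp, against 5.82, 5.77 and 5.87 FPKM in XF pulp, while Cs1g12670, Cs2g10070 and Cs5g16290 were not called (log2 differences of -0.86, -0.45 and 0.51). With all pulp libraries in 1 limma fit these 3 passed, at adjusted p of 0.0214 for Cs1g12670, 0.00642 for Cs2g10070 and 0.0317 for Cs5g16290, and Cs2g10070 passed in limma-voom (0.00332), with a minimum mean of 1 FPKM (0.0426), without JC replicate 1 (0.011) and without XF replicate 2 (0.0399). Cs1g12670 passed without JC replicate 3 (0.049). None of the 4 pectin genes, Cs8g01300, Cs1g12840, Cs7g19180 and Cs4g15560, was called, with log2 differences from -0.17 to 0.15.

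Few genes were near silent in a single variety. Of the genes with a mean of 1 FPKM or more in a variety, 11 with this level in JC had at most 3 fragments in every XF library, and 8 with this level in XF had at most 3 in every JC library. The clearest was Cs3g18750, with no description, with 9.04, 9.28 and 9.36 FPKM in JC pulp, against 0.191, 0 and 0.172 FPKM in XF pulp, 279 fragments against 4 in all (ratio 76.9 after scaling for depth, exact 95% interval 29.7 to 284, for counting error only). Cs3g18770, close to it by ID, had 45 fragments in JC pulp and 2 in XF pulp (ratio 24.8, interval 6.48 to 211). In the other direction, the undescribed Cs2g03210 had 1 fragment in JC pulp and 76 in XF pulp, with 0, 0.0758 and 0 FPKM in JC pulp, against 2.296, 1.13 and 1.75 FPKM in XF pulp. In 9 of the 19 genes the higher variety itself had 17 fragments or fewer over its 3 libraries. Some of these did not differ beyond counting error. The interval included equal levels for Cs5g11930, orange1.1t05524, Cs6g17300, orange1.1t05816 and orange1.1t05798. Cs5g11930 had 9 fragments in JC pulp and 8 in XF pulp (interval 0.425 to 3.70).

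The comparison of JC with XF in the peel called fewer genes, 1977 of 17440 (11.3%), 1059 higher (6.07%) and 918 lower (5.26%). At 2-fold 93 genes were higher (0.533%) and 168 lower (0.963%) in JC peel, 1.5% of those tested. Of the 493 genes with at least 2-fold differences in pulp, 419 were tested in peel, where 99 were called in the same direction, 38 in the opposite direction and 282 not at all. The pulp minus peel difference of JC minus XF was called for 3771 of 17855 genes (21.1%), and for 311 of these 419. The 419 were chosen for their pulp difference, which is part of this term, so that their count follows in part from the choice. At 2-fold 263 differences were above 0 (1.47%) and 418 below (2.34%), 3.81% in all. Of the 3771 genes 1672 were above 0 (9.36%) and 2099 below (11.8%), but 2091 of 3817 were above 0 when libraries were scaled by median ratios. The ERF and DREB list had 16 higher and 10 lower of 56 in the peel, with a median of 0.05, and the difference between the tissues was called below 0 for 27 and above 0 for 5. These comparisons share the pulp libraries. For ERF017 the peel levels were 24.3 FPKM in JC peel and 15.5 FPKM in XF peel, opposite in direction to the pulp, with a difference between the tissues of -3.22 ± 0.13 (SE, adjusted p = 7.8e-09). The thaumatin-like orange1.1t03024, higher in JC pulp, was lower in JC peel, with 3.38 FPKM in JC peel and 5.67 FPKM in XF peel. Phosphate genes had none higher and 10 lower of 50 in peel, with a median of -0.04. Jasmonate genes had 1 higher and 14 lower of 25 in peel, and ribosomal proteins 44 higher and none lower of 159.

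**Figure D5:**
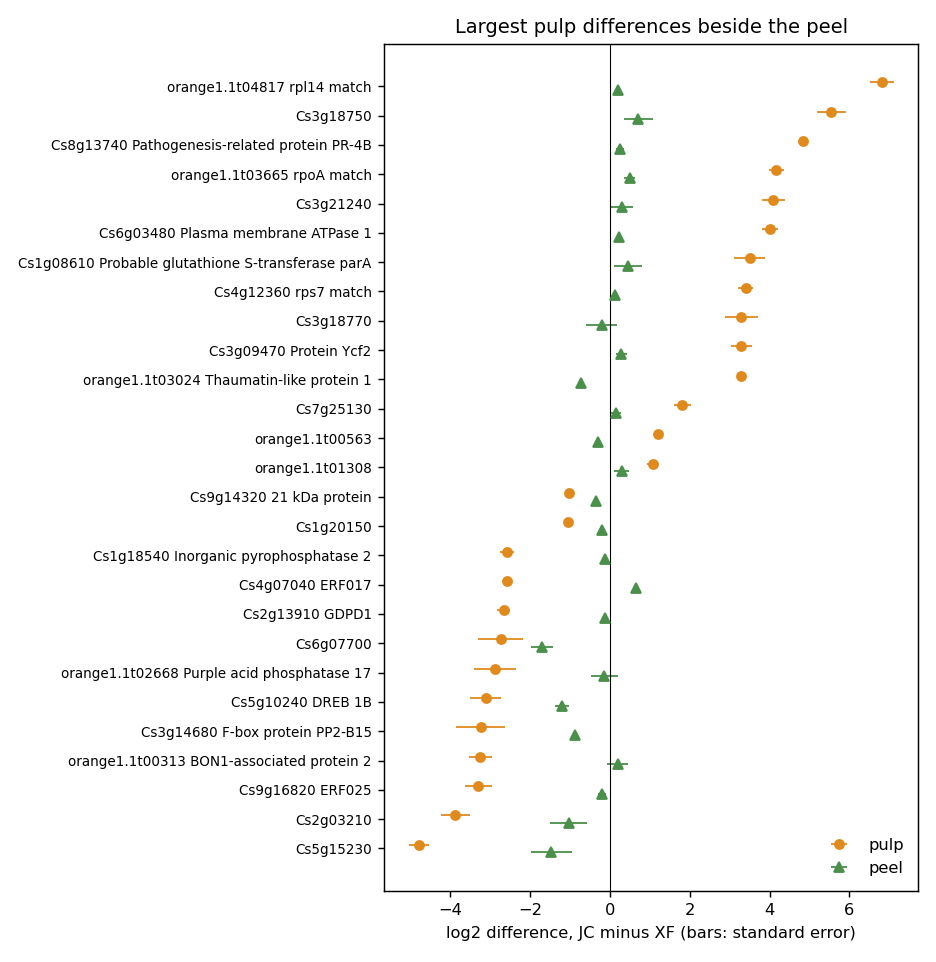
Log2 difference of JC minus XF with its standard error, for pulp (circles) and peel (triangles), in 27 of the 29 genes with the largest pulp differences or the highest levels among those changed 2-fold, without the 2 that were not tested in peel. In pulp the differences run from -4.78 to 6.81, and most peel values lie nearer to 0.

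The pulp of the other varieties was set beside the largest differences with no test. Of the 12 genes with the largest rises in JC by the naming rule, 6 lay nearer to JC than to XF in TY pulp on the log2 scale, none in CU, 1 in DE and none in RR. The 6 were organelle matches and genes that moved like them, and the gene nearer to JC in DE was PR-4, with 0.457 FPKM in TY pulp, 1.31 in CU, 6.28 in DE and 1.21 in RR. Of the 12 genes with the largest falls in JC, 8 were nearer to XF in TY pulp, 6 in CU, 7 in DE and 6 in RR. GDPD1, with 25.4 FPKM in TY pulp, 21.4 in CU, 12.95 in DE and 48.6 in RR, was above JC in all 4 varieties, and ERF017, with 4.503 FPKM in TY pulp, 0.653 in CU, 4.99 in DE and 1.28 in RR, was above JC in TY, DE and RR.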

How the data were processed

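RNA was extracted from peel and pulp of 6 sweet orange varieties, and libraries were prepared from poly-A-selected mRNA. The submitters' processing notes name TopHat2, RSEM and DESeq 1.10.1, and the genome build is not given in the sources used here. The authors deposited FPKM values of 29654 genes in 36 libraries. Multiplying by gene length and depth gave whole fragments (tolerance 0.02) for 100% of the values. Whether counting used strand is not stated, and close gene copies may share reads.

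From these values log2(FPKM + 0.1) was computed for the 6 pulp libraries, genes with a mean of 0.3 FPKM or more in JC or XF were kept, and JC minus XF was fitted with limma 3.58.1 (trend, R 4.3.3). P-values were adjusted by the Benjamini-Hochberg method over all genes kept, and those under 0.05 were called. Fold changes are on this log2 scale, which understates low genes. Peel, and pulp minus peel, were fitted in the same way. The method was tested on simulated data. Fits were repeated with other pseudocounts (0.01, 1), filters (none, 1 FPKM), scaling, no trend, all 18 pulp libraries, limma-voom on recovered fragments, a replicate block, and without each library.

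The named genes are the 12 largest rises and 12 largest falls with groups that do not overlap and a mean of 1 FPKM or more, up to 4 called members of each list (the 2 most abundant and the 2 most changed), the 6 most abundant genes changed at least 2-fold, genes named by the study, and up to 10 genes near silent in 1 variety. Other genes are said to be chosen after their values were seen. Families counted within a list were split off after the values were seen. The comparison, its gene lists and tests were chosen with earlier results of these data known. Annotation came from the deposited descriptions, which match a Swiss-Prot protein for 21506 genes (72.5%). Intervals cover counting error only.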

Additional observations from a re-analysis of the deposited data

Results flagged for a closer look

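For 29 genes with the largest differences, or the highest levels among those that differed 2-fold, the difference of JC minus XF was compared between pulp and peel by an interaction term in limma. It passed an adjusted p of 0.05 for 26, of which 14 were above 0 and 12 below, against 21.1% of all genes tested. The genes were chosen for their pulp difference, which is part of this term, so that the count and the signs follow in part from the choice and nothing is read from them. Values are pulp minus peel on the log2 scale.

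Above 0 stood the organelle matches and genes that moved like them, with 6.61 for orange1.1t04817 (rpl14), 3.78 for Cs3g21240, 3.77 for Cs6g03480, 3.67 for orange1.1t03665 (rpoA), 3.27 for Cs4g12360 (rps7), 3.01 for Cs3g09470 (ycf2) and 1.66 for Cs7g25130. Defence and detoxification genes followed, with 4.58 for PR-4 (Cs8g13740), 4.02 for the thaumatin-like orange1.1t03024, 4.02 for the berberine bridge enzyme-like Cs2g10140 and 3.04 for the transferase parA (Cs1g08610). Undescribed genes above 0 were Cs3g18750 at 4.83, Cs3g18770 at 3.49 and orange1.1t00563 at 1.51.

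Below 0 stood regulators and signalling genes, with -3.43 for BON1-associated protein 2 (orange1.1t00313), -3.22 for ERF017 (Cs4g07040), -3.10 for ERF025 (Cs9g16820), -2.35 for the F-box protein PP2-B15 (Cs3g14680) and -1.91 for the DREB1B match (Cs5g10240). Genes of phosphate supply had -2.75 for purple acid phosphatase 17 (orange1.1t02668), -2.54 for GDPD1 (Cs2g13910) and -2.44 for inorganic pyrophosphatase 2 (Cs1g18540). The extensin-1-like Cs5g15230 had -3.32, Cs2g03210 had -2.84, Cs1g20150 had -0.86 and the 21 kDa protein Cs9g14320 had -0.68. For genes at or near 0 fragments in a group these sizes depend on the pseudocount.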

How the results depend on the processing

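The count of genes called in pulp (5049) stayed within 1.5 times under every alternative, from 3908 without XF replicate 1, or 3918 without the trend, to 5791 with all pulp libraries in 1 fit. The count of genes called at 2-fold (493) was 158 with a pseudocount of 1, 49 of them higher in JC, since a larger pseudocount shrinks the differences of low genes, and 432 to 493 when a library was left out. Leaving out a library gave 3908 to 4207 called genes, and for pulp minus peel 3231 to 3541. The replicate numbers did not pair the libraries, since deviations of same-numbered JC and XF pulp libraries correlated at 0.0418, -0.0025 and -0.0183. With a replicate block 4518 genes were called in pulp, 486 at 2-fold, and 3215 for pulp minus peel. Of 198 called genes named by the rule or added, 150 kept the call under every alternative, 34 calls being lost without the trend and 16 to 27 without a single library. A call was gained under at least 1 setting by 6 of the genes not called, 4 of them study genes (CsERF74 and Cs2g10070 also with the block, at 0.0381 and 0.0431). No called gene turned its direction, while 3 genes not called and the medians of 12 of the 44 lists crossed 0 under some setting. With no library left out, counts of called list members, both directions together, moved by more than 1.5 times in 6 cases, among photosynthesis, aquaporins, protease inhibitors, NAC factors and LEA proteins. By direction, counts of 10 or more moved that far in 6 lists under some setting, left-out libraries included. NBS-LRR proteins ranged from 3 to 17 higher and from 17 to 43 lower, with 7 or fewer higher when any library but XF replicate 2 was left out. NAC factors had 7 lower without the trend, 8 without XF replicate 1 or 3, and 9 without a filter or without JC replicate 2, and MYB factors had 9 lower without XF replicate 3. Organic acids had 7 lower without the trend or without JC replicate 2 or 3, cell cycle genes 8 to 10 lower without 1 of the XF libraries, and ribosomal proteins 10 lower without the trend. The organelle matches had a median of 1.04 to 3.54 over the alternatives, with 7 to 9 called higher. For genes of a few fragments, depth limits the precision.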

Other observations

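UDP-glycosyltransferases, which attach sugars to small molecules, had 10 higher and 10 lower of 55 in JC pulp (18.2% each way, against 14.7% and 16.5% of all genes). Plasma membrane ATPases had 5 higher and 1 lower of 24 (25.0% called, against 31.2% of all genes), and transposon-related proteins had 2 higher and 2 lower of 26 (15.4% called). The undescribed gene Cs8g10300 had 0, 0 and 0.116 FPKM in JC pulp, against 0.111, 0 and 6.70 FPKM in XF pulp, so that 67 of its 68 fragments in XF lay in 1 library.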
